A study of Mus musculus with 4 samples.

Results

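The choroid plexus genes described here are 10 genes known for their high expression in the epithelium of the choroid plexus, chosen by symbol from 23946 gene symbols listed in each library. The list was drawn up with measured values of these libraries in view, so the values below are a description and support nothing by themselves. CD51+;CD200+ cells, labelled skeletal stem cells, were sorted from wild type CD-1 mice at postnatal day 3, and RNA was measured in 1 library for each of 4 tissues: the coronal suture (COR), the sagittal suture (SAG), the posterior frontal suture (PF), and the tibial growth plate (GP). The sutures were taken as a complex that held bone fronts, mesenchyme, dura mater, and periosteum. The sort left out cells with CD105, 6C3, either form of Thy1, the endothelial receptor Tie2, the erythroid marker Ter119, or the leukocyte marker CD45. Cells of several mice went into each library, so no spread between animals was measured and no test between tissues was possible.

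The choroid plexus is a fold of vascular tissue in the brain ventricles, covered by a single layer of ciliated epithelium that secretes cerebrospinal fluid. The epithelium moves sodium, bicarbonate, potassium, chloride, and water across its apical membrane, takes up folate and hormones from blood, and releases carrier proteins into the fluid. It is not a skeletal tissue, and it is not part of a suture.

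Values are FPKM, fragments scaled by transcript length and by library size, as deposited by the authors. FPKM totals of the libraries were from 447174 to 550958. Read depth is not listed beside these values, and relative depth was therefore read from the spacing of low values after multiplication by transcript length. By this estimate PF held 42.4% of the fragments of SAG, COR 82.5%, and GP 82.0%. *Itgav*, the gene of CD51, was at 12.7 FPKM for PF, 6.20 for SAG, 15.0 for COR, and 13.5 for GP. For *Cd200*, the values in that order were 23.5, 48.1, 62.6, and 57.1 FPKM.

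Of the 10 genes, 7 had their highest FPKM in SAG, 2 in GP, 1 in COR, and 0 in PF. Of the 8 members that reached 1 FPKM in any library, 5 were highest in SAG, as were 28.4% of the 13998 genes that did so. The value of 1 FPKM was reached by 7 members in SAG and by 7 in PF, by 4 in GP, and by 3 in COR. *Kl* and *Slc4a5* were below 1 FPKM in every library, and no member was listed at 0 in any. The members therefore did not share a single pattern: *Ttr*, *Folr1*, *Kcnj13*, *Clic6*, *Kcne2*, *Kl*, and *Slc4a5* had their highest value in SAG, whereas *Enpp2*, *Prlr*, and *Aqp1* did not. In bulk RNA, fewer cells of a type and less RNA per cell cannot be told apart.

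**Figure D1:**
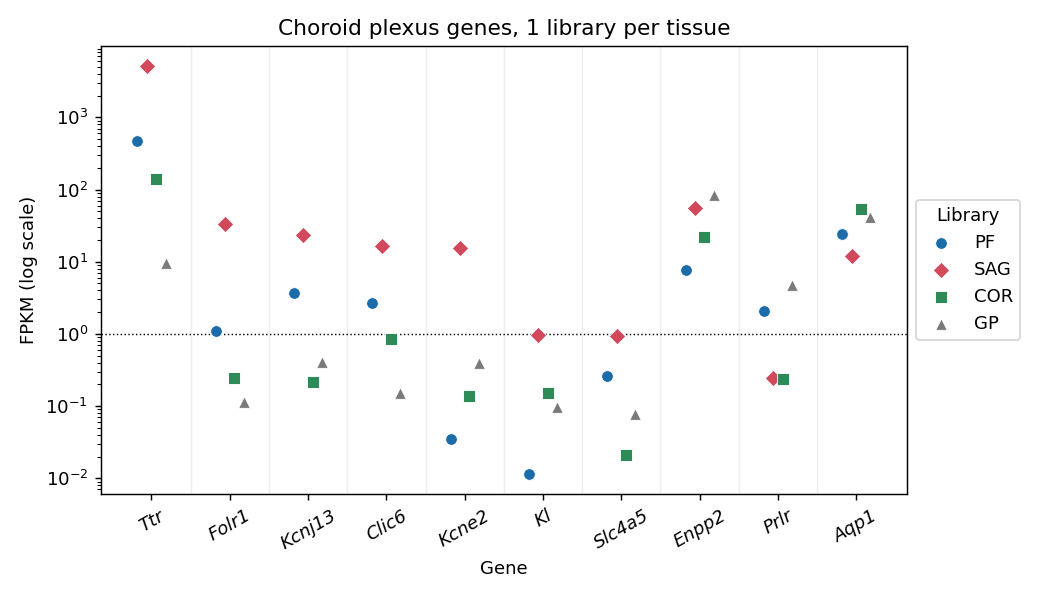
FPKM on a log axis for each choroid plexus gene in the PF, SAG, COR, and GP libraries, 1 point per library, with a dotted line at 1 FPKM. SAG is the highest point for the 7 genes on the left, at 5103 FPKM for Ttr, and is the lowest point for Aqp1.

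Among the carrier and secreted proteins, *Ttr* encodes transthyretin, which carries thyroxine and, with its binding protein, retinol. *Ttr* (mm9 chromosome 18, 20823751 to 20832825) was at 465 FPKM for PF, 5103 for SAG, 141 for COR, and 9.74 for GP. The order was SAG, PF, COR, and GP, and it ranked 1 among all symbols in SAG, 180 in PF, 673 in COR, and 6126 in GP. Even without SAG, *Ttr* was 3.30-fold higher in PF than in COR and 14.5-fold higher in COR than in GP. In SAG, *Ttr* alone held most of the signal of the group: the 10 genes summed to 5262 FPKM there, and to 159 without *Ttr*. In GP, where *Ttr* was lowest, the 10 genes summed to 140 FPKM, and most of that was not *Ttr*. Without *Ttr*, the sum was 41.6 FPKM in PF, 77.9 in COR, and 130 in GP, so the distance of SAG from the other libraries was far smaller for this sum. Outside SAG, most of it came from *Enpp2* and *Aqp1*, at 22.2 and 53.8 FPKM in COR and 83.0 and 41.1 in GP.

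*Enpp2* (mm9 chromosome 15, 54670453 to 54751701) encodes autotaxin, a secreted enzyme that makes lysophosphatidic acid and is also made by cells of mesenchyme. *Enpp2* was at 7.62 FPKM for PF, 55.8 for SAG, 22.2 for COR, and 83.0 for GP. GP, and not a suture, was the highest library, and PF was the lowest. GP and SAG, the upper pair in this order, were 1.49-fold apart, while PF was 10.9-fold below GP.

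Among the receptors, *Folr1* (mm9 chromosome 7, 109006845 to 109019302) encodes folate receptor alpha, through which folate enters the cerebrospinal fluid. *Folr1* was at 1.08 FPKM for PF, 33.7 for SAG, 0.245 for COR, and 0.114 for GP. SAG was 31.2-fold above PF, the next library, and *Folr1* was close to the lower end of detection in GP, where its value corresponded to an estimated 5.39 fragments. *Kl* (chromosome 5, 151755182 to 151796384) encodes Klotho, a membrane protein that serves as a co-receptor for FGF23. *Kl* was at 0.0116 FPKM for PF, 0.958 for SAG, 0.153 for COR, and 0.0985 for GP. The PF value corresponded to an estimated 1.05 fragments, which is too few for a ratio, and SAG was 6.28-fold above COR. *Prlr* (chromosome 15, 10106993 to 10303504), the prolactin receptor, went another way. It was at 2.05 FPKM for PF, 0.243 for SAG, 0.240 for COR, and 4.84 for GP. GP and PF were the higher pair for *Prlr*, and SAG and COR were alike to within 1.01-fold. In the GENCODE annotation, 155 exon bases of *Prlr* are shared with *Agxt2* on the same strand, which had 0.0638 FPKM in PF and 0 elsewhere.

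Among the channels and transporters, *Kcnj13* (mm9 chromosome 1, 89282938 to 89291304) encodes Kir7.1, an inward rectifier potassium channel of the apical membrane. *Kcnj13* was at 3.64 FPKM for PF, 23.3 for SAG, 0.215 for COR, and 0.408 for GP. SAG was 6.40-fold above PF, and PF in turn was 16.9-fold above COR. Of the 1270 exon bases of *Kcnj13*, 623 are shared with *Gigyf2* on the opposite strand, and strand was not stated for these libraries, so reads of this stretch cannot be told apart. *Gigyf2* was at 3.65 FPKM for PF, 5.33 for SAG, 6.56 for COR, and 5.82 for GP, an order unlike that of *Kcnj13*.

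*Kcne2* (mm9 chromosome 16, 92292634 to 92298374) encodes a small accessory subunit of the KCNQ1 potassium channel. *Kcne2* was at 0.0351 FPKM for PF, 15.4 for SAG, 0.140 for COR, and 0.390 for GP. SAG was 39.6-fold above GP, the next library, and the PF value corresponded to an estimated 1.05 fragments. *Clic6* lies on the same chromosome, at 92485981 to 92541488, and encodes a member of the chloride intracellular channel family. It was at 2.68 FPKM for PF, 16.7 for SAG, 0.850 for COR, and 0.150 for GP. The order of the libraries for *Clic6* was that of *Ttr* and *Folr1*, with SAG 6.22-fold above PF.

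*Slc4a5* (mm9 chromosome 6, 83169822 to 83254939) encodes the electrogenic sodium bicarbonate cotransporter NBCe2. *Slc4a5* was at 0.264 FPKM for PF, 0.925 for SAG, 0.0213 for COR, and 0.0772 for GP. SAG was 3.50-fold above PF, at levels too low to pass the filter of 1 FPKM, and the COR value corresponded to an estimated 3.76 fragments. *Aqp1* (chromosome 6, 55286426 to 55298549), the water channel aquaporin 1, had the opposite order. It was at 24.2 FPKM for PF, 11.9 for SAG, 53.8 for COR, and 41.1 for GP. *Aqp1*, which red cells and vascular endothelium also make, was the only member with its lowest value in SAG, 4.53-fold below COR and 3.46-fold below GP.

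RefSeq promoter windows were given for 6 of the 10 members: *Aqp1*, *Kcne2*, *Kcnj13*, *Kl*, *Prlr*, and *Slc4a5*. *Ttr*, *Folr1*, *Clic6*, and *Enpp2* had no entry. The 250 bases before the annotated start are shown for 3 members that had their own highest value in SAG. They are also shown for *Aqp1*, the member that had its own lowest value there. The choice rests on the order of the libraries within each gene, not on the size of the SAG value. That order does not fix the choice: *Kl* was also highest in SAG, and its window is not shown. The *Kl* window held none of the motifs described below. Coordinates are those of GRCm38.p6, another build than the mm9 positions above, and each sequence runs 5′ to 3′ on the strand of its gene. Capitals mark a TATA box motif, TATAAA on either strand. The windows are *Kcnj13* at chr1:87394730-87394979 on the minus strand, *Kcne2* (the first of its windows) at chr16:92292139-92292388, *Slc4a5* at chr6:83237125-83237374, and *Aqp1* at chr6:55336049-55336298 on the plus strand.
Kcnj13: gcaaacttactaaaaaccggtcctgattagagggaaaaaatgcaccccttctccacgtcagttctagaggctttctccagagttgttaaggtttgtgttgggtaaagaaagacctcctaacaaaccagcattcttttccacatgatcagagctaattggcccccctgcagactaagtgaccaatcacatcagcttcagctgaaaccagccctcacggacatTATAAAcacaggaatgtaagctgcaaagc
Kcne2: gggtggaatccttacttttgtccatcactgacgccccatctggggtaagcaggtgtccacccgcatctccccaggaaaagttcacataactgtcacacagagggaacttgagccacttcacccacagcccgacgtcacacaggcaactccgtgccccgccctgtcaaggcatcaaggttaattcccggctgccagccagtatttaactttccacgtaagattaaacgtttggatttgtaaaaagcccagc
Slc4a5: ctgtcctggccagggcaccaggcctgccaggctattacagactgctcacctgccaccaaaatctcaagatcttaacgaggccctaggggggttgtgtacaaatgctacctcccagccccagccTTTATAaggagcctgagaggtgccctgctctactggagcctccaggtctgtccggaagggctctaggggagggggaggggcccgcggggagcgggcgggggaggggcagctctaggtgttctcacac
Aqp1: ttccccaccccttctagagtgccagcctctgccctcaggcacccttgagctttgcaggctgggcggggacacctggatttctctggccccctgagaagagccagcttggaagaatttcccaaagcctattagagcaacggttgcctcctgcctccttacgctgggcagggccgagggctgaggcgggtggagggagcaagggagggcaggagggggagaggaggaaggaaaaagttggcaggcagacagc

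The *Kcnj13* window holds TATAAA with its first base at -29 from the start, and the *Slc4a5* window holds the same motif in reverse, as TTTATA, with its first base at -127. TATAAA was found on either strand in 12.4% of 32851 mouse promoter windows of this length. TAATCC, the core letters bound by OTX and CRX factors, was found in 0 of the 9 windows of the members and in 6.25% of all windows. GTTGCCA, bound by RFX factors, was found in 0 of the 9 and in 3.66% of all. GTAAACA, bound by forkhead factors, was found in 1 of the 9, the second *Prlr* window, and in 3.17% of all. The motifs do not overlap in these windows. G and C made up 45.2% of the *Kcnj13* window, 52.4% of the first *Kcne2* window, 62.8% of the *Slc4a5* window, and 62.0% of the *Aqp1* window.

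Ratios between libraries are differences of log2(FPKM + 1), a scale on which changes of low genes are compressed. A gene was counted if it reached 1 FPKM in at least 1 library of the pair, and it was called different at 3-fold or more, without a test. Members counted only because of a high SAG value had to differ, so the numbers below describe these libraries and are not support. The comparisons that share a library are not independent of each other.

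In SAG compared with PF, 8 members were counted, 6 were called higher in SAG and 0 lower. Over all 13490 genes counted in this pair, 9.04% were called higher and 6.64% lower in SAG. The 6 were *Ttr*, *Folr1*, *Kcne2*, *Clic6*, *Kcnj13*, and *Enpp2*, with log2 ratios from 2.26 for *Clic6* to 4.06 for *Folr1*. *Aqp1* and *Prlr* had log2 ratios of -0.97 and -1.30, under 3-fold on this scale and in the other direction. The median of the counted members was 2.55, compared with -0.025 for all genes. Relative to *Gapdh*, which was at 281 FPKM in PF and 407 in SAG, the split over all genes changed from 1220 higher and 896 lower to 862 and 1677, and the median of all genes to -0.51. *Clic6* was the only one of the 5 genes named first that fell under 3-fold in any setting tried, at a log2 ratio of 1.496 over PF with a pseudocount of 5.

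In SAG compared with COR, 7 members were counted, with 5 called higher in SAG and 1 lower. Over all genes, 6.15% were called higher and 3.11% lower in SAG. *Ttr* had a log2 ratio of 5.17, *Folr1* 4.80, *Kcnj13* 4.32, *Kcne2* 3.85, and *Clic6* 3.26, while *Aqp1* was at -2.09. *Enpp2*, at 1.29, was under 3-fold here. The median was 3.85 over the counted members, 2.27 over all 10, and 0.020 over all genes. With 1 FPKM required in both libraries, it was 1.29, and 2 members were called in place of 6. The same filter left 10945 genes, with 323 called higher and 286 lower in SAG. Relative to *Gapdh*, 647 genes were called higher and 535 lower, in place of 782 and 395.

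In SAG compared with GP, 8 members were counted, with 5 called higher in SAG and 2 lower. Over all genes, 4.8% were called higher and 3.86% lower in SAG. The same 5 names as against COR were higher, from 3.56 for *Kcne2* to 8.89 for *Ttr* on the log2 scale. *Prlr* at -2.23 and *Aqp1* at -1.71 were lower, and with a pseudocount of 5 both were under 3-fold, at -0.91 and -1.45. The median was 3.75 over the counted members, 2.201 over all 10, and 0.027 over all genes. Over *Ttr*, *Enpp2*, and *Aqp1*, the 3 members at 1 FPKM or more in both libraries, it was -0.56.

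*Ttr*, *Folr1*, *Kcne2*, *Clic6*, and *Kcnj13* were thus at least 3-fold higher in SAG than in each other library, which held for 2.85% of the 13998 genes at 1 FPKM or more in any library.

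**Figure D2:**
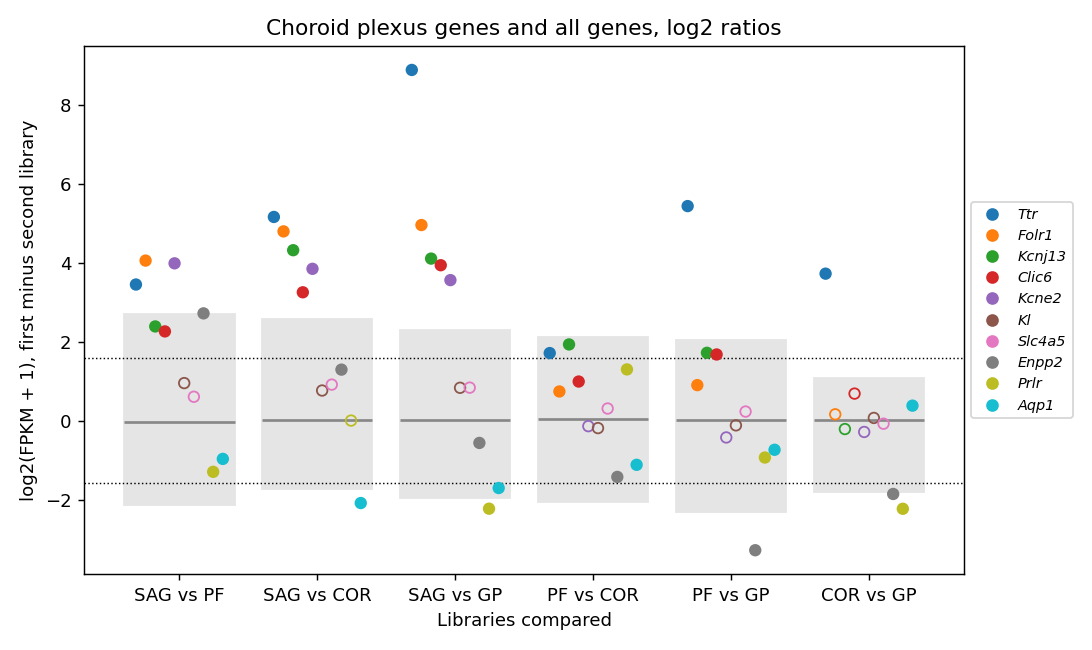
Log2 ratios on the log2(FPKM + 1) scale for each choroid plexus gene in the 6 pairs of libraries, first minus second. Grey boxes span the middle 95% of all genes counted with a line at their median, dotted lines mark 3-fold, and open points are members below 1 FPKM in both libraries. Ttr lies above the box in SAG vs GP, at 8.89, and in PF vs GP, at 5.44.

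In the pairs without SAG the group divided. In PF compared with COR, 7 members were counted and 2 were called higher in PF, *Kcnj13* at a log2 ratio of 1.93 and *Ttr* at 1.71, with 0 lower. Over all genes, 6.81% were called higher and 4.87% lower in PF. *Prlr*, *Clic6*, and *Folr1* had positive ratios under 3-fold on this scale, and *Enpp2* and *Aqp1* negative ones. Their values were 1.30, 0.99, 0.74, -1.43, and -1.12. The median of the counted members was 0.99, and it turned to -1.12 with 1 FPKM required in both libraries or 5 FPKM in 1.

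In PF compared with GP, 7 members were counted, with 3 called higher and 1 lower in PF. Over all genes, 5.72% were called higher and 6.24% lower in PF. *Ttr* was at 5.44, *Kcnj13* at 1.72, and *Clic6* at 1.68, whereas *Enpp2* was at -3.29. The median of the counted members was 0.90, and it turned to -0.84 with 1 FPKM required in both libraries and to -0.74 with 5 FPKM in 1. In COR compared with GP, 4 members were counted, of which *Ttr* was called higher in COR at 3.73, and *Prlr* at -2.23 and *Enpp2* at -1.86 were called lower, *Prlr* being under 3-fold at -0.91 with a pseudocount of 5. The median of the counted members was -0.74, and it turned to 0.38 under either stricter filter and to 0.40 under quantile normalization. Over all genes, 1.2% were called higher and 3.2% lower in COR. *Ttr* was the only member called higher in the first library in each of these 3 pairs. With a pseudocount of 5 the PF calls of *Kcnj13* and *Clic6* were lost, at log2 ratios of 0.73 and 0.68 for *Kcnj13* against COR and GP and 0.58 for *Clic6* against GP, and under quantile normalization the PF over COR call of *Ttr* was lost, at 1.55. Relative to *Gapdh*, 1276 genes were called higher and 541 lower in PF than in COR, in place of 875 and 626, and 1317 and 592 in PF against GP, in place of 749 and 818.

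*Ttr*, *Folr1*, *Kcne2*, *Clic6*, and *Kcnj13* did not keep fixed proportions to each other. Between SAG and COR, the fold of these 5 members ran from 19.6 for *Clic6* to 137 for *Folr1*. Between SAG and GP it ran from 39.6 for *Kcne2* to 524 for *Ttr*. Between SAG and PF, it was 6.22 for *Clic6*, 6.40 for *Kcnj13*, 11.0 for *Ttr*, and 31.2 for *Folr1*. For *Kcne2* it was 440, a value that rests on an estimated 1.05 fragments in PF.

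Expressed as a share of *Ttr* in the same library, on the FPKM scale, *Folr1* was at 0.232% for PF, 0.660% for SAG, 0.174% for COR, and 1.17% for GP. *Kcne2* was at 0.00755% for PF, 0.303% for SAG, 0.0991% for COR, and 4.01% for GP. *Clic6* was the steadiest of these across the sutures, at 0.576% in PF, 0.326% in SAG, and 0.602% in COR. GP had the highest share for each of the 6 other members with their highest value in SAG, and it was also the library with the lowest *Ttr*. Depth was lowest in PF, and the part of depth in these shares was not tested.

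**Figure D3:**
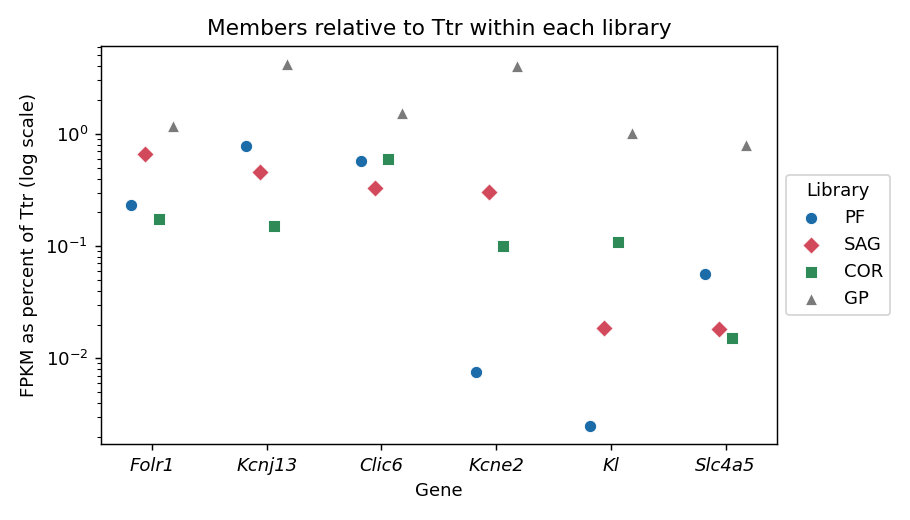
FPKM of the 6 other members with their highest value in SAG, as a percent of Ttr in the same library, on a log axis with 1 point per library. GP is the highest point for each gene, and the PF points of Kcne2, at 0.00755%, and Kl, each worth about 1 fragment, are the lowest.

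Further genes of choroid plexus epithelium, 47 in all, were grouped by role to place the members. In SAG compared with PF, 43 were counted, 17 were higher and 2 lower by 3-fold or more, or 39.5% and 4.65%, beside 9.04% and 6.64% of all genes. Compared with COR, 18 of 43 were higher and 0 lower in SAG, beside 6.15% and 3.11% of all genes. Compared with GP, 18 of 44 were higher and 1 lower, beside 4.8% and 3.86% of all genes. The median log2 ratios were 1.45, 1.47, and 0.96, with medians of all genes of -0.025, 0.020, and 0.027. With a pseudocount of 5, the numbers called in either direction were 9, 6, and 8 in place of 19, 18, and 19. Among all genes, 304 higher and 255 lower were then called against PF, 296 and 203 against COR, and 229 and 220 against GP. The main numbers of all genes were 1220 and 896, 782 and 395, and 621 and 499. The list of 47, too, was drawn up with earlier results of these libraries known.

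Transcription factors and junction genes were highest in SAG without exception among those that reached 1 FPKM, with 4 of 4 and 6 of 6. *Otx2*, a homeobox gene needed to form the choroid plexus, was at 10.3 FPKM for PF, 168 for SAG, 4.09 for COR, and 0.269 for GP. *Foxj1*, the regulator of motile cilia, was at 0.418, 3.99, 0.0918, and 0.0229 FPKM, and *Mcidas*, a multiciliation factor, at 1.08 and 4.02 FPKM in PF and SAG and at 0 in COR and GP. *Otx2* and *Foxj1* were at least 3-fold higher in SAG than in each other library. *Trp73* and *Gmnc* stayed below 1 FPKM everywhere.

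Among the junction genes, *Spint2*, a protease inhibitor of epithelia, was at 0.280 FPKM for PF, 41.4 for SAG, 2.08 for COR, and 19.8 for GP. *Krt18*, a keratin of simple epithelia, was at 0.0868, 10.2, 0.572, and 4.94 FPKM, and *Cldn1*, a claudin of tight junctions, at 2.59, 9.05, 0.634, and 4.70. For these 3 genes GP was the second library, and against GP none of them passed 3-fold. *Cldn2*, the claudin typical of the choroid plexus, had 1.88 FPKM in SAG and less than 1 elsewhere.

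Of the 12 ion transport genes, 5 were highest in SAG, 6 in PF, and 1 in GP. *Car14*, a membrane carbonic anhydrase, was at 5.92 FPKM for PF, 105 for SAG, 2.95 for COR, and 0.200 for GP. *Atp1b1*, a subunit of the sodium pump, was at 94.2, 55.2, 57.5, and 9.59 FPKM, and *Slc12a4*, a potassium chloride cotransporter, at 41.2, 13.1, 31.2, and 31.3. *Slc4a2*, *Slc12a2*, *Slc12a4*, and *Atp1b1*, transport genes that many cell types use, were highest in PF and were chosen after their values were seen.

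Of the 8 nutrient and hormone transport genes at 1 FPKM or more, 5 were highest in SAG. *Slc31a1*, a copper transporter, was at 19.6 FPKM for PF, 43.1 for SAG, 41.4 for COR, and 34.3 for GP. *Slc23a2*, a vitamin C transporter, was at 31.7, 16.5, 14.4, and 4.80 FPKM in that order, so *Slc31a1* was highest in SAG and *Slc23a2* in PF.

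The secreted proteins departed from the SAG pattern. Of 8 genes, 4 were highest in GP, 3 in PF, and 1 in SAG. *Igfbp2* was at 1828 FPKM for PF, 542 for SAG, 198 for COR, and 70.2 for GP. *1500015O10Rik*, now named *Ecrg4*, was at 1241, 356, 302, and 1444 FPKM, and *Igf2* at 833, 453, 671, and 763. These are genes that skeletal and mesenchymal cells also express, and *Igfbp2* and *1500015O10Rik* were called lower in SAG than in PF. The part of such cells in the order of the libraries was not tested.

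Of the receptor and membrane genes, *Calml4* was at 64.4 FPKM for PF, 97.48 for SAG, 12.6 for COR, and 24.4 for GP. *Cab39l* was at 6.29, 35.8, 16.2, and 20.5 FPKM, and *Steap1*, a metalloreductase, at 1.66, 8.90, 4.10, and 10.6. In this role, 4 of 6 genes were highest in SAG. *Htr2c*, the serotonin receptor for which this epithelium is known, had 3.79 FPKM in SAG, 0.639 in PF, 0.00617 in COR, and 0 in GP.

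In all, 9 of the 47 were at least 3-fold higher in SAG than in each other library: *Car2*, *Car14*, *Trpm3*, *Slc13a4*, *Slco1c1*, *Cldn3*, *Krt8*, *Otx2*, and *Foxj1*. The background for this call is the 2.85% given above. These genes were singled out after their values were seen.

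**Figure D4:**
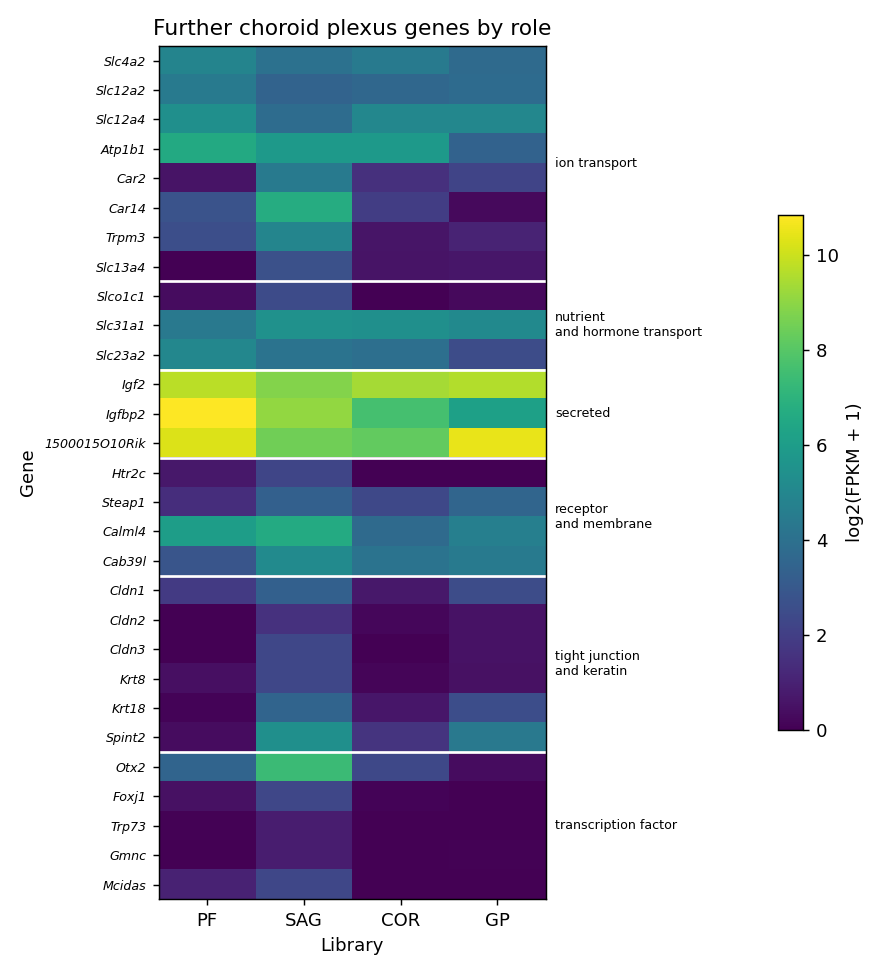
Heat map of log2(FPKM + 1) for 29 of the further choroid plexus genes, those named in the text, in rows grouped by role, in the PF, SAG, COR, and GP libraries. The SAG column is the brightest for the 6 genes of the tight junction and keratin group, while Igfbp2 is brightest in PF, at 1828 FPKM, and 1500015O10Rik in GP, at 1444 FPKM.

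Markers of other cell types that the dissection or the sort could hold were summed per library and set beside the members. Genes of ependymal cells and motile cilia moved with the SAG-high members: 11 markers summed to 6.15 FPKM for PF, 148 for SAG, 8.30 for COR, and 14.3 for GP, and 8 of them were at least 3-fold higher in SAG than in each other library. *Mlf1* was at 0.471, 57.3, 3.53, and 11.6 FPKM in PF, SAG, COR, and GP, and *Rsph1*, a gene of the ciliary radial spoke, at 1.62, 36.7, 4.07, and 2.13. Choroid plexus epithelium itself bears cilia and expresses genes of this list. Pineal and photoreceptor genes, 10 in all, summed to 27.8, 108, 15.4, and 14.1 FPKM in the same order, led by *Tph1* at 50.7 and *Gnb3* at 26.4 FPKM in SAG. Of that list, *Rcvrn* was listed at 0 in all 4 libraries, and *Aanat*, an enzyme of melatonin synthesis, had 0.468 FPKM in SAG and 0 elsewhere.

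The 8 genes of retinal pigment epithelium, a tissue that also makes *Ttr*, *Folr1*, and *Kcnj13*, summed to 12.9 FPKM for PF, 69.6 for SAG, 4.15 for COR, and 3.56 for GP. *Rlbp1*, a retinal carrier also found in glia, was at 36.3 FPKM in SAG and *Dct*, a melanin enzyme, at 21.5. Of the 5 genes of this list at 1 FPKM or more in any library, 4 were highest in SAG. *Mitf*, at 6.69 FPKM in SAG, and *Lrat*, at 2.86, were among them. *Rpe65* and *Tyr* were at 0 in SAG and below 1 FPKM in every library. These 4 names were chosen after their values were seen. Liver and yolk sac, which also make *Ttr*, were near the lower end of detection: the 6 markers, *Alb* and *Afp* among them, summed to 0.578 FPKM for PF, 0.293 for SAG, 0.829 for COR, and 0.869 for GP. *Apoh*, at 0.657 FPKM in COR, and *Fgb*, at 0.395 in PF, had the highest values of that list.

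Lists of neurons, glia, and meninges did not have their highest sum in SAG. The 10 neuron markers summed to 86.8 FPKM for PF, 25.4 for SAG, 23.6 for COR, and 19.1 for GP, with *Gap43* at 78.8 FPKM in PF and *Tubb3* at 10.2 in COR as the highest genes. The 10 glial markers summed to 149, 102, 44.4, and 197 FPKM in PF, SAG, COR, and GP, led by *Mbp* at 88.1 in PF and *Fabp7* at 67.0 in SAG. Of the neuron list, 5 of 7 genes at 1 FPKM or more were nonetheless highest in SAG, *Snap25* among them at 2.21 FPKM and 0 elsewhere, which was chosen after its values were seen. The 9 meningeal markers summed to 356, 217, 103, and 206 FPKM, led by *Crabp2* at 177 in GP and *Foxd1* at 135 in PF, and *Slc22a6* was at 0 throughout.

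Epithelial, endothelial, erythroid, and leukocyte lists were low apart from single genes. The 5 surface epithelium markers summed to 10.02, 113, 7.65, and 3.69 FPKM in PF, SAG, COR, and GP, of which *Krt15* alone was 112 in SAG, *Epcam* was at most 3.10, in GP, and *Krt14* was at 0 in SAG. The 6 endothelial markers summed to 4.41, 16.9, 2.18, and 1.84 FPKM, with *Kdr* at 14.9 in SAG and *Cdh5* at most 1.68, in PF. The 5 erythroid markers summed to 15.6 FPKM in PF and at most 1.93 elsewhere, with *Hba-a1* at 9.40 and *Hbb-b1* at 6.06 in PF. The 6 leukocyte markers summed to 34.4, 11.0, 5.55, and 8.20 FPKM, led by *Lyz2* at 30.2 and *Cd68* at 3.63 in PF.

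Skeletal genes were present in every library, with a sum over 10 genes of 708 FPKM for PF, 2150 for SAG, 1184 for COR, and 2368 for GP. *Col2a1*, the collagen of cartilage, was at 31.4, 1749.8, 35.4, and 1731 FPKM, and made most of the sum in SAG and GP. *Alpl*, the alkaline phosphatase of bone, was at 461, 59.7, 645, and 258 FPKM. Of the 10 genes, 6 were highest in COR, 2 in SAG, and 2 in GP. *Itgav*, *Runx2*, *Sp7*, *Alpl*, *Twist1*, and *Prrx1* were lowest in SAG. *Sp7* and *Alpl* were at least 3-fold lower in SAG than in each other library, as were 89 of the 13998 genes. These genes were named with their values known. The part of these other cell types in the levels of the members was not tested, and with 1 library per tissue the tissue and its library cannot be told apart.

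**Figure D5:**
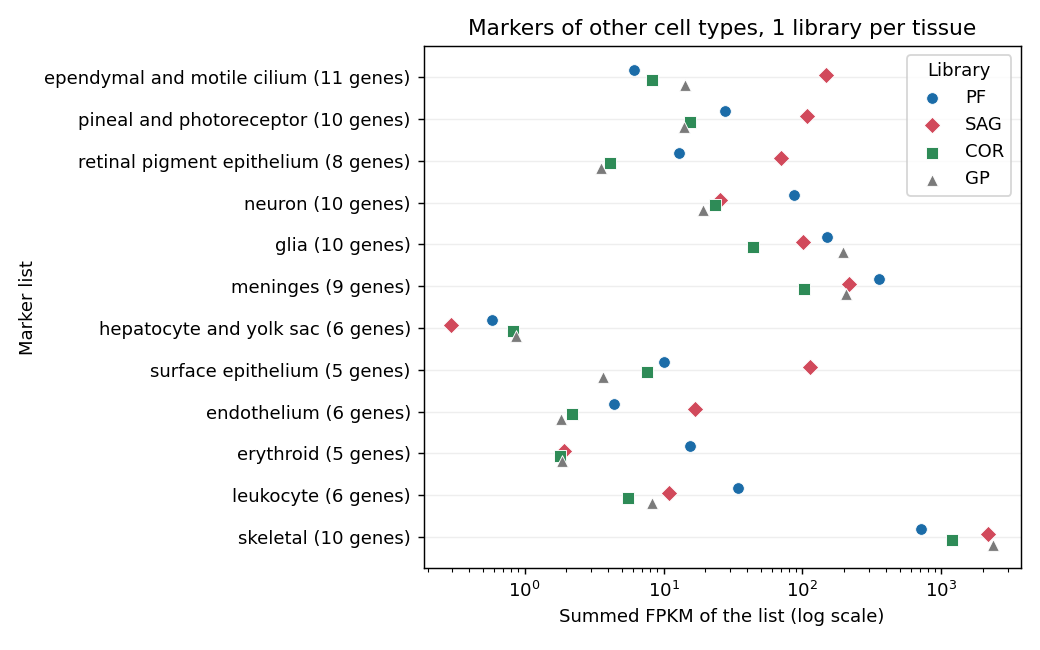
Summed FPKM on a log axis for each marker list of other cell types in the PF, SAG, COR, and GP libraries, 1 point per library. The SAG point lies above the others for the ependymal and motile cilium list, at 148 FPKM, and for the pineal and photoreceptor list, at 108 FPKM, and below them for the hepatocyte and yolk sac list.

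Genes with a profile like that of the members were sought over the 4 libraries, among 9795 other genes with 5 FPKM or more in at least 1 of them. Likeness was the Euclidean distance of mean-centred log2(FPKM + 1) values to the median profile of the 10 members, which stood at -0.12 for PF, 1.61 for SAG, -0.84 for COR, and -0.48 for GP. Among the 10 nearest were *Olfm1*, *Stx3*, *Arl6ip1*, *D630033O11Rik*, *Ppp2r2b*, *Fgd4*, *Phyhd1*, *Ccdc181*, and *Nanos1*. The 10 lay at distances from 0.15 to 0.37. *Olfm1* was at 47.3 FPKM for PF, 146 for SAG, 25.5 for COR, and 35.1 for GP, and *Stx3* at 1.74, 8.86, 0.854, and 1.18. The members themselves lay farther from this median, from 1.17 for *Slc4a5* to 5.001 for *Ttr*, so the median stood for no single member. Of the pairs of members at 5 FPKM or more, *Clic6* and *Kcnj13* were the closest, at a distance of 0.85, and *Folr1* and *Kcne2* followed at 1.18.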

How the data were processed

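Reads were aligned by the authors to the mm9 mouse genome (STAR 2.5.1b), and Cuffdiff (Cufflinks 2.2.1) with an iGenomes gene model gave the FPKM listed for each symbol in the deposited tables, according to the study's methods. How Cuffdiff scaled the libraries is not given in the sources used here. cDNA was amplified from low input, and cells were double sorted.

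Here, log2(FPKM + 1) ratios were computed for 6 pairs of libraries, for genes at 1 FPKM or more in at least 1 library of a pair, and 3-fold or more was called without a test. Depth was estimated from 2672 single-transcript coding genes over 2 kb in GENCODE vM1 of mm9, which also gave positions, lengths, and shared exons. The fragment estimates are approximate. Promoters were those of RefSeq on GRCm38.p6. The members and lists were chosen with earlier results of these data known. Named were all members, the 3 highest genes of each role, the 2 highest of each marker list, genes at 0 throughout, and the 10 genes nearest in profile; others are marked as chosen after their values were seen or are given as defining markers. A few genes that this rule names are not reported here.

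Alternatives were pseudocounts of 0.1 and 5, other filters, median-ratio scaling, quantile normalization, values relative to *Gapdh*, a loess correction for GC content, and leaving out *Ttr*. A change of under 1.5-fold was taken as no move. The work was done in Python 3.11.15 with pandas 2.3.3, numpy 2.4.6, and, for the loess fit, statsmodels 0.14.6.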

Additional observations from a re-analysis of the deposited data

How the results depend on the processing

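No paired analysis was possible because only 1 library stands for a tissue, and leaving out a replicate could not be run for the same reason. With no spread between replicates, a value counted as moved when it changed by more than 1.5-fold, and the cause of each move was not tested unless the setting itself shows it. Of the summary values recomputed, 117 did not move and the others did. Of 60 recomputed medians of the members, 8 changed sign: 3 for COR over GP, 2 for PF over COR, 2 for PF over GP, and 1 for SAG over GP. The medians as reported were 3.85 for SAG over COR, 3.75 for SAG over GP, 0.99 for PF over COR, 0.90 for PF over GP, and -0.74 for COR over GP. The 5 members that stood 3-fold above every other library in SAG kept that in 125 of 126 ratios recomputed, the exception being *Clic6* over PF with a pseudocount of 5. Of 472 recomputed ratios of single members, 9 lost and 14 gained the 3-fold call, and 6 near 0 changed sign. A filter leaves the ratio of a single gene as it was, so part of the 126 and of the 472 ratios could not change. The 5 members were also picked by this call in the same libraries, so these counts describe the settings and are not support.

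With FPKM of 1 or more required in both libraries, which leaves out the members that were near 0 outside SAG, the median log2 ratio of members turned to -0.56 for SAG over GP (3 members left), to -1.12 for PF over COR, to -0.84 for PF over GP, and to 0.38 for COR over GP, and was 1.29 for SAG over COR. Members called were then 2 for SAG against COR, 2 for SAG against GP, 1 for PF against COR, and 2 for PF against GP. Calls in the wider list were 9, 6, and 8 for SAG against PF, COR, and GP, 5 and 7 for PF against COR and GP, and 4 for COR against GP. Among all genes, 446 were then called higher and 483 lower of 10599 for SAG against PF, and 323 and 286 of 10945 against COR. For SAG against GP the numbers were 225 and 294 of 11123. They were 360 and 250 of 10375 for PF against COR, and 273 and 321 of 10514 for PF against GP. For COR against GP they were 69 and 206 of 10982. With 5 FPKM required in 1 library, the medians also changed sign, to -1.12 for PF over COR, -0.74 for PF over GP, and 0.38 for COR over GP, with 1 and 2 members called for PF against COR and GP, and 11, 12, and 5 wider genes for SAG against COR, SAG against GP, and COR against GP. Among all genes, 5 FPKM in 1 library gave 583 higher and 350 lower of 9030 for SAG against COR. It gave 465 and 415 of 9056 for SAG against GP, and 510 and 420 of 8932 for PF against COR. It gave 426 and 544 of 8980 for PF against GP, and 110 and 308 of 8607 for COR against GP. With no filter, the medians were 2.27 for SAG over COR, 2.201 for SAG over GP, 0.056 for PF over GP, and -0.0038 for COR over GP.

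With a pseudocount of 0.1, the medians were 5.17 for SAG over COR, 5.26 for SAG over GP, 1.72 for PF over COR, and 2.47 for PF over GP, with 4 members and 15 wider genes called for PF against COR. With a pseudocount of 5, they were 1.87, 1.99, and 1.998 for SAG over PF, COR, and GP, 0.39 for PF over COR, and 0.25 for PF over GP. Members called were 1 and 2 for PF against COR and GP, and wider genes 9, 6, and 8 for SAG against PF, COR, and GP, 3 and 7 for PF against COR and GP, and 4 for COR against GP. In these settings the main numbers of wider genes were 19, 18, 19, 8, 15, and 10 for SAG against PF, COR, and GP, PF against COR and GP, and COR against GP.

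Quantile normalization turned the median for COR over GP to 0.40 and 1 member for PF against COR. Without *Ttr*, the median was 0.082 for PF over GP and -1.86 for COR over GP, with 1 member for PF against COR. The GC correction ended the call of *Clic6* for PF over GP, at 1.55, and put *Prlr* past 3-fold for SAG under PF, at -1.85, and PF over COR, at 1.66. Scaling to *Gapdh* moved the median of all genes to -0.51 for SAG over PF, -0.23 for SAG over COR, 0.29 for PF over COR, 0.46 for PF over GP, and 0.21 for COR over GP. Estimated depth limits values near 1 fragment, as for *Kcne2* and *Kl* in PF.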

Other observations

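Of all genes, 399 were at least 3-fold higher in SAG than in each other library, and some of them stand in marker lists of other cell types; the genes given here were singled out with their values known. *Krt15*, a keratin of basal epithelia, was at 9.87 FPKM for PF, 112 for SAG, 3.58 for COR, and 0.171 for GP, while *Krt5*, another basal keratin, was at 0.0633 FPKM in SAG. *Kdr*, the receptor for VEGF, was at 14.9 FPKM in SAG, while *Pecam1* was at 0.193 there. *Ptgds*, the prostaglandin D synthase of meninges and choroid plexus, was at 12.7, 91.3, 5.73, and 0.0810 FPKM in PF, SAG, COR, and GP. *Crx*, a homeobox gene of pineal and photoreceptor cells, was at 0.098, 18.9, 0.548, and 0.0104 FPKM.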
